A study of Mus musculus with 136 samples.

Results

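Expression of 8 genes of the Hedgehog pathway was examined in mouse embryos at embryonic day 8.5 and in the visceral yolk sacs that enclosed them, in normal pregnancies and in pregnancies of dams with spontaneous diabetes. The genes were chosen by name, for their place in the pathway, out of 47643 genes in the count table: the ligands Shh and Ihh, the receptor Ptch1, the signal transducer Smo, the transcription factors Gli1, Gli2 and Gli3, and the inhibitor Hhip. All 8 were measured, and the rule uses no measured value.

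Hedgehog ligands are secreted proteins that bind Patched receptors on neighbouring cells. Without ligand, Patched keeps the membrane protein Smoothened inactive and GLI3 is processed into a repressor; with ligand, Smoothened is released, and GLI proteins pass through the primary cilium and activate target genes, among them Ptch1, Gli1 and Hhip. In the early mouse embryo Shh is known from the notochord, the floor plate of the neural tube and the gut endoderm, and Ihh from the visceral endoderm of the yolk sac, where it acts on the adjoining mesoderm that forms blood and vessels.

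All animals were NOD mice, a strain that becomes diabetic without treatment, so that control and diabetic dams shared the same genetic background and differed in whether the disease had set in. Blood glucose in the dams ranged from 105 to 164 mg/dl in normal and from 423 to 595 mg/dl in diabetic pregnancies, where a number was given. From each of 66 concepti the embryo and the yolk sac were sequenced separately. They came from 22 litters, 10 normal and 12 diabetic, and fell into 4 groups by the somite pairs of the embryo: 17 normal and 17 diabetic concepti with 5 to 6 somite pairs, and 16 normal and 16 diabetic concepti with 7 to 9.

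Total counts per library ranged from 1017901 to 5658850 (median 2302819). RNA of sex-linked genes matched the sex label in all 66 embryos and all 66 yolk sacs. In 2 of 66 concepti, however, the embryo and its yolk sac carried different sex labels, and thus RNA of different sex. For these 2 the pairing by title, and with it the stage of the yolk sac, is uncertain. They were kept among the 66, and fits were repeated without them. Littermates shared a dam and were correlated (0.251 between littermate embryos with 5 to 6 somite pairs, 0.128 with 7 to 9). Between diabetic and normal pregnancies within a stage, p-values that treat each library as independent are therefore smaller than the litters warrant. Some litters held both stages, and for other comparisons this need not hold. With litter as a random block, genes called between stages went from 1615 to 2007 in normal embryos and from 3124 to 2811 in diabetic ones. Neural tube and visceral endoderm markers followed the labels. The 5 neural tube genes summed to medians of 292 to 376 counts per 1000000 of the library (CPM) in the embryo groups and 2.65 to 9.70 in the yolk sac groups. The 10 visceral endoderm genes summed to 193 to 283 CPM and 9245 to 14068 CPM. A list of 7 definitive gut endoderm genes did not follow the labels. Its sums had medians of 141 to 180 CPM in the embryo groups and 380 to 449 CPM in the yolk sac groups. No visceral endoderm marker was at 0 in the embryos, where the sum ranged from 41.3 to 1466 CPM between libraries.

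Each count was 1 molecule read at the 3′ end of its transcript, so CPM does not grow with transcript length and levels of different genes can be set beside each other without dividing by length. In the 66 embryos Ptch1 was the most abundant of the 8 genes, at 155 ± 35.5 CPM (mean ± SD, n = 66). Below it came Gli3 at 63.2 ± 17.2, Gli1 at 45.9 ± 17.9, Gli2 at 21.7 ± 6.74, Smo at 17.3 ± 5.02, Shh at 8.56 ± 3.01, Ihh at 4.07 ± 2.20 and Hhip at 3.25 ± 1.35 CPM. The receptor thus stood apart from every other member by more than its spread, whereas Gli3 and Gli1, Gli2 and Smo, and Ihh and Hhip lay within 1 SD of each other.

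In the 66 yolk sacs Ptch1 was again highest, at 112 ± 27.8 CPM (SD, n = 66), and Ihh was next at 31.8 ± 8.57. Gli1 followed at 12.3 ± 4.18, then Smo at 8.11 ± 2.89, Gli3 at 7.92 ± 3.77, Hhip at 6.91 ± 2.59, Gli2 at 5.06 ± 2.84 and Shh at 0.0916 ± 0.222 CPM. Smo, Gli3, Hhip and Gli2 were not separated from each other, in that order, by more than the larger SD of neighbours, whereas Shh lay below Gli2 by more than its spread.

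**Figure D1:**
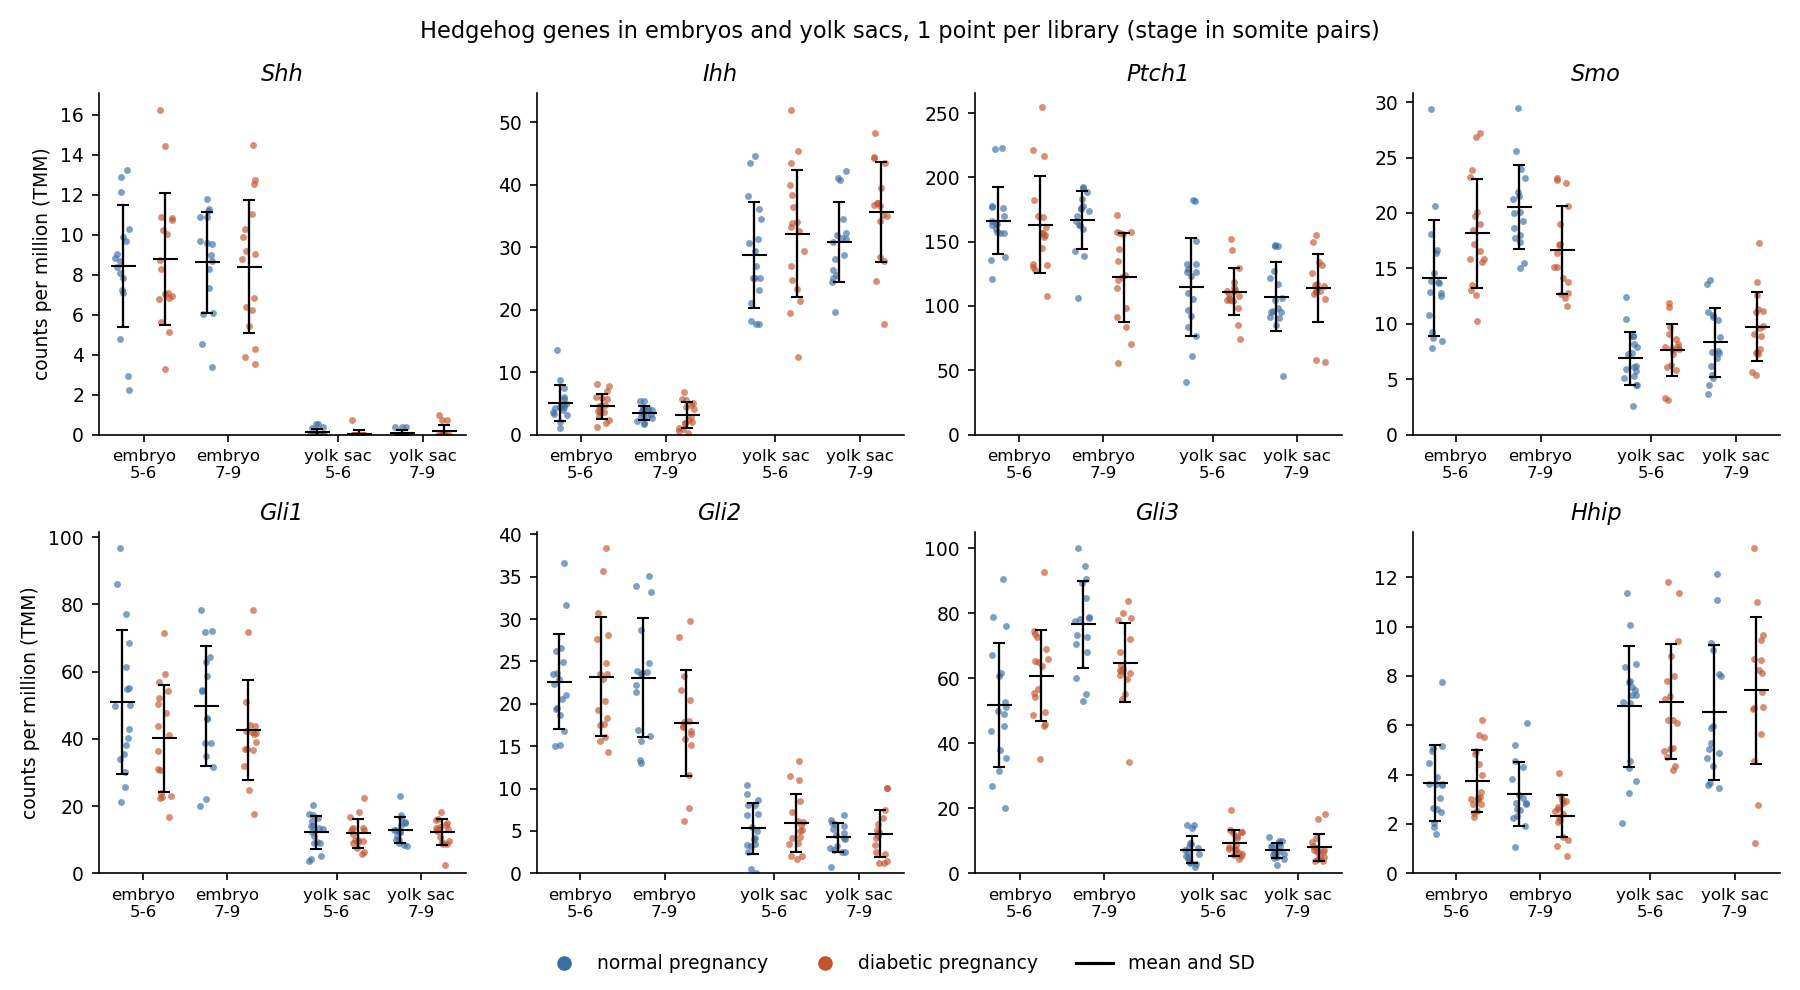
Level of each of the 8 genes in CPM, each on its own linear axis. Each point is 1 library, with the mean and SD of each group of 16 or 17 libraries. Shh and Ihh change places between the tissues, with Shh at 8.56 and Ihh at 4.07 CPM in embryos and Ihh at 31.8 CPM in yolk sacs, while Ptch1 is the highest of the 8 genes in both.

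The first comparison asked where in the conceptus each component was expressed. The tissues carried different ligands: Shh was found in embryos and hardly in yolk sacs, and Ihh was mainly a yolk sac transcript. Shh (chr5:28456815-28467256, minus strand; mm10, GENCODE release 21) was counted in 66 of 66 embryos, from 2.24 to 16.2 CPM with a median of 8.74. In yolk sacs 55 of 66 libraries held no Shh count, and the other 11 held 15 counts in all, at most 2 in a library. No yolk sac reached the lowest embryo.

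In edgeR's quasi-likelihood test Shh was lower in yolk sacs than in embryos by a log2 fold change of -5.72 (adjusted p = 3.2e-18) in normal concepti with 5 to 6 somite pairs, -5.89 (adjusted p = 6.4e-20) in normal concepti with 7 to 9 and -6.49 (adjusted p = 8.2e-20) in diabetic concepti with 5 to 6. With so few yolk sac counts these fitted values depend on how 0 is treated. In diabetic concepti with 7 to 9 somite pairs Shh fell under the filter on low counts, and without that filter its log2 fold change was -5.33. The noncoding genes 9530036O11Rik and Gm26894 overlap Shh on the opposite strand. The sum of 8 notochord and floor plate markers was not lower in yolk sacs (medians of 180 to 196 CPM, against 128 to 141 in embryos). Of this list Foxa2, a gene also of endoderm, averaged 91.1 CPM in yolk sacs and 40.4 CPM in embryos. Another, Noto, was at 0 in all normal yolk sacs with 7 to 9 somite pairs and all diabetic ones with 5 to 6. As a sum this list does not follow the difference in Shh between the tissues, and its single markers can differ from the sum.

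Ihh (chr1:74945315-74951672, minus strand) ranged from 12.4 to 52.0 CPM in yolk sacs, with a median of 31.7, and from 0.310 to 13.5 CPM in embryos, with a median of 3.92. It was higher in the yolk sac than in the embryo of the same conceptus in 66 of 66 concepti, and within each of the 4 groups the yolk sac and embryo libraries did not overlap. The log2 fold changes were 2.51 and 3.13 in normal concepti with 5 to 6 and with 7 to 9 somite pairs and 2.84 and 3.44 in diabetic ones (largest adjusted p = 6.7e-15, edgeR). Of the counts of both ligands in a library, Shh made up 67.9% in embryos, with a range of 33.3% to 97.6%, and 0.329% in yolk sacs, with a range of 0% to 3.28%. Visceral endoderm markers were present in the embryo libraries at the sums given above; their part in the Ihh level of embryos was not tested here.

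Ptch1 (chr13:63508328-63573598, minus strand), the receptor and itself a target of the pathway, was strongly expressed on both sides. It ranged from 55.3 to 255 CPM in embryos, with a median of 158, and from 40.5 to 182 CPM in yolk sacs, with a median of 112. The 2 ranges overlapped widely, although the embryo was the higher tissue in 57 of 66 concepti. The log2 fold change of yolk sac against embryo was -0.53 (SE 0.13) and -0.65 (SE 0.10) in normal concepti with 5 to 6 and 7 to 9 somite pairs and -0.53 (SE 0.10) in diabetic concepti with 5 to 6 (adjusted p = 2.4e-04, 4.1e-07 and 6.1e-06). In diabetic concepti with 7 to 9 somite pairs it did not pass the test, at -0.13 (95% interval -0.41 to 0.14, adjusted p = 0.370). Ptch1 was the only one of the 6 members tested in that group that did not.

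Smo (chr6:29735503-29761365, plus strand), the transducer downstream of Ptch1, was expressed at a lower level on both sides, with medians of 16.9 CPM in embryos (7.84 to 29.4) and 7.75 CPM in yolk sacs (2.56 to 17.3). It was higher in the embryo in 65 of 66 concepti. The log2 fold changes of yolk sac against embryo were -1.03 and -1.29 in normal and -1.22 and -0.85 in diabetic concepti, in the order of their stages (largest adjusted p = 2.1e-06).

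The 3 GLI genes were all lower in yolk sacs, and unequally so. Gli1 (chr10:127329882-127341974, minus strand), the target-gene activator, had medians of 42.7 CPM in embryos and 12.7 in yolk sacs, and log2 fold changes from -2.06 to -1.73 over the 4 groups. Gli2 (chr1:118834132-119053619, minus strand), the main initial activator, had medians of 21.2 and 4.70 CPM and log2 fold changes from -2.42 to -1.91. Gli3 (chr13:15463235-15730026, plus strand), mainly a repressor, had medians of 63.3 and 7.18 CPM and log2 fold changes from -3.46 to -2.68. The largest adjusted p over these 12 tests was 7.4e-10.

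Gli2 and Gli3 were higher in the embryo in 66 of 66 concepti and Gli1 in 65, and the lowest Gli3 level of an embryo, 20.2 CPM, lay above the highest of a yolk sac, 19.4 CPM. The makeup of the GLI counts differed accordingly: Gli3 held 48.3% of them in embryos and 31.03% in yolk sacs, Gli1 34.9% and 49.5%, and Gli2 16.9% and 19.4%. Yolk sac libraries held only 7 to 113 GLI counts each, so their single shares are imprecise. The 3′ end of Gli1 lies against Arhgap9, which is on the opposite strand, and the strand setting of the counting is not given in the sources used here.

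Hhip (chr8:79965851-80058006, minus strand), a membrane protein that binds and sequesters Hedgehog ligands, was the other member that was higher in yolk sacs. It ranged from 1.23 to 13.2 CPM there and from 0.714 to 7.76 CPM in embryos, and was higher in the yolk sac of 56 of 66 concepti. The log2 fold changes were 0.89 and 1.03 in normal concepti and 0.90 in diabetic concepti with 5 to 6 somite pairs (largest adjusted p = 6.6e-05). In diabetic concepti with 7 to 9 somite pairs it fell under the filter on low counts, and without the filter it was 1.63.

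In all, 8 of 8 members passed the test in both normal groups and in diabetic concepti with 5 to 6 somite pairs, 2 higher and 6 lower in yolk sacs, against 70.6%, 75.2% and 70.9% of all genes tested. In diabetic concepti with 7 to 9 somite pairs 5 of 6 members passed, against 72.8% of all genes. Most genes differed between these tissues, so nothing is read from the count of members. The median log2 fold change of the members was between -1.62 and -1.32 in the 4 groups, and that of all genes between -0.04 and -6.5e-05. With the conceptus as a replicate block the members called were 8, 8, 8 and 7, the last including Shh and Hhip.

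**Figure D2:**
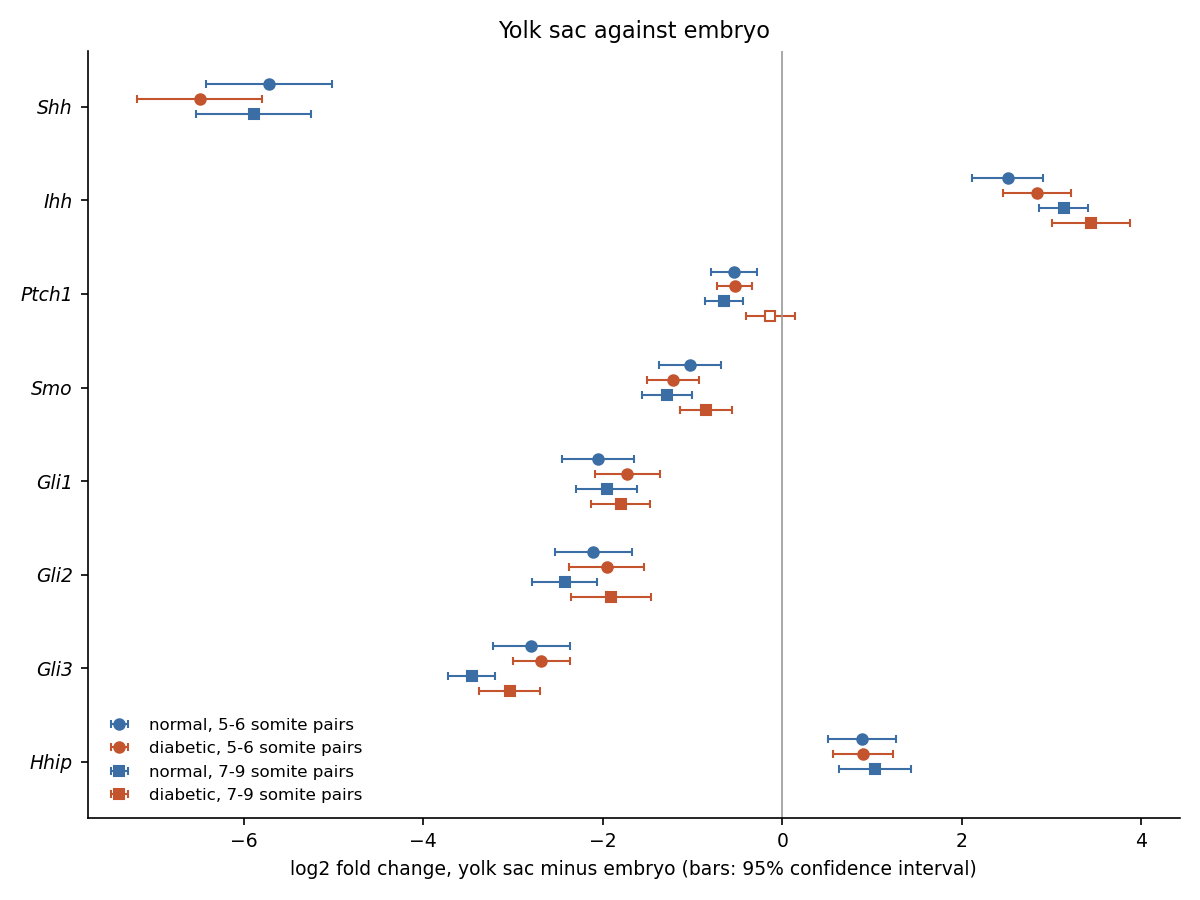
Log2 fold change of yolk sac against embryo for each gene in the 4 groups of concepti, with 95% intervals from edgeR; a filled marker passed the test (adjusted p under 0.05) and an open one did not. Ihh and Hhip lie above 0 and the others below, with Ptch1 in diabetic concepti of 7 to 9 somite pairs, at -0.13, the only open marker.

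The wider pathway list held 49 genes. In normal concepti with 5 to 6 somite pairs, 36 of these were tested, of which 8 were higher in yolk sacs and 25 lower, with 70.6% of all genes called. The higher ones with the largest change were Lrp2, a large endocytic receptor that can bind Shh (59.7 CPM in embryos and 309 in yolk sacs, log2 fold change 2.38), Gpc3, a glypican that competes with Patched for ligand (1.28), and Foxa2, a transcription factor of endoderm and floor plate (0.92). The lower ones with the largest change were transcription factors that respond to Hedgehog in the embryo proper: Nkx6-1 of the ventral neural tube (-6.29), Tbx1 of the pharyngeal region (-5.89) and Pax9 of the sclerotome and pharynx (-5.14). The co-receptors Gas1, Boc and Cdon were also lower. The counts were 7 up and 23 down of 34 tested in normal concepti with 7 to 9 somite pairs, 8 up and 24 down of 35 in diabetic concepti with 5 to 6, and 7 up and 22 down of 34 in diabetic concepti with 7 to 9. Foxf1, a target of Hedgehog in mesoderm next to endoderm, was among the higher ones, at 82.5 CPM in yolk sacs and 49.8 CPM in embryos.

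The second comparison asked whether maternal diabetes changed the pathway in embryos. At 7 to 9 somite pairs Ptch1 was lower in embryos of diabetic dams. Its level was 106.5, 172.0 and 192.2 CPM (lowest, median and highest) in 16 normal embryos and 55.3, 123.2 and 170.4 CPM in 16 diabetic ones. The highest diabetic embryo did not reach the normal median, and the groups overlapped. The log2 fold change was -0.45 (SE 0.11, 95% interval -0.68 to -0.21, adjusted p = 0.0137 in edgeR's test), a 1.36-fold lower level. As in any bulk sample, fewer cells that express a gene and less RNA per such cell cannot be told apart.

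Litter by litter, Ptch1 averaged 107 to 185 CPM in 7 normal litters, with a median of 168, and 81.1 to 156 CPM in 6 diabetic litters. All 6 diabetic litters lay below the normal median and 2 below the lowest normal litter. Of 24 other settings the difference was called in 22, with log2 fold changes from -0.60 to -0.37. These settings reuse the same embryos, and 13 of them leave out 1 litter each, so they are not separate evidence. It was not called when counts were summed per litter (-0.42, adjusted p = 0.168) or without the normal litter N28M05 (-0.41, adjusted p = 0.0585). Without litter D28M36, whose embryos held the highest sum of primitive erythroid markers (2049 CPM, against medians of 81.6 CPM in normal and 99.6 CPM in diabetic embryos of this stage), it was -0.38 (adjusted p = 0.0233). With litter as a random block it was -0.52 (adjusted p = 0.0302). The library titles open with a number, 23, 24 or 28, whose meaning the labels do not give. Within number 28 Ptch1 averaged 167 CPM in 13 normal and 104 CPM in 8 diabetic embryos, and within number 24 it averaged 166 CPM in 3 normal and 139 CPM in 7 diabetic embryos. Those 7 were all littermates, from D24M15, and made up 7 of the 16 diabetic embryos at this stage. The 3 normal ones came from litters N24M21 and N24M29.

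The remaining 5 members tested at this stage did not pass. Smo had a lowest, median and highest level of 14.99, 20.1 and 29.4 CPM in normal and 11.6, 15.7 and 23.2 CPM in diabetic embryos, with a log2 fold change of -0.29 (SE 0.11, adjusted p = 0.0749), and 5 of 6 diabetic litters lay below the lowest normal litter. It passed with the title number as covariate (-0.34, adjusted p = 0.0344) and with duplicate libraries added to their originals (-0.32, adjusted p = 0.0487). Gli3 was at 77.8 and 62.7 CPM (medians; log2 fold change -0.24, adjusted p = 0.0987), Gli2 at 23.6 and 17.3 CPM (-0.35, adjusted p = 0.159) and Gli1 at 50.3 and 41.6 CPM (-0.23, adjusted p = 0.383). For these 4 genes the diabetic and normal ranges overlapped.

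Shh, the ligand of the embryo, did not pass. It was at 3.38, 9.27 and 11.8 CPM in normal and 3.53, 8.91 and 14.5 CPM in diabetic embryos, a log2 fold change of 0.01 (95% interval -0.34 to 0.36, adjusted p = 0.982). A library held only 6 to 42 counts of Shh, which limits the precision. Ihh and Hhip, at mean levels of 3.47 and 3.12 CPM and of 3.21 and 2.34 CPM in normal and diabetic embryos, fell under the filter on low counts. Without the filter the log2 fold change was -0.13 for Ihh (adjusted p = 0.811) and -0.42 for Hhip (adjusted p = 0.317).

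At this stage 1 of 6 members tested passed, against 9.09% of all genes tested. An unadjusted p under 0.05 was reached by 4 members and by 2916 of the 10628 genes tested. DESeq2 also called 1 member, and 1194 of all genes. The median log2 fold change was -0.27 over the members and -0.01 over all genes. Of the wider list, 38 genes were tested, 0 were higher and 2 lower in diabetic embryos. Lrp2 was at 58.9 ± 12.3 CPM in normal and 41.5 ± 11.9 CPM in diabetic embryos (SD, n = 16 each; log2 fold change -0.50, adjusted p = 0.0092). Ccnd1, which encodes the cell cycle regulator cyclin D1, was at 408 ± 52.7 and 318 ± 73.6 CPM (-0.36, adjusted p = 0.0200).

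**Figure D3:**
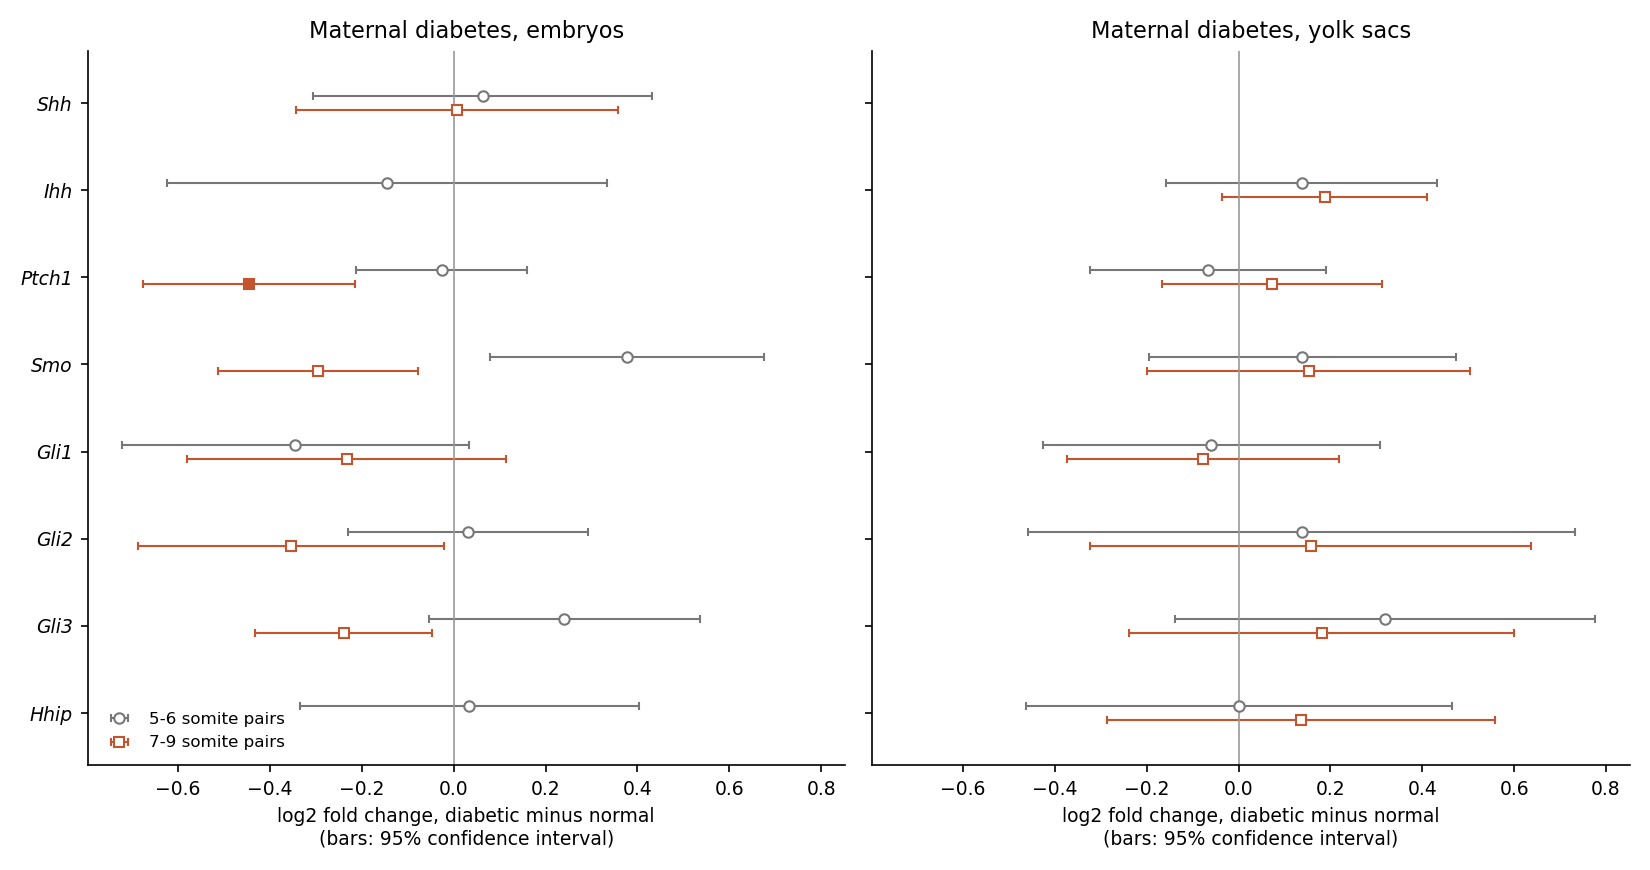
Log2 fold change of diabetic against normal pregnancies for each gene, in embryos and yolk sacs at both stages, with 95% intervals from edgeR; a filled marker passed the test and an open one did not, and genes under the filter on low counts have no marker. Ptch1 in embryos with 7 to 9 somite pairs, at -0.45, is the only filled marker.

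At 5 to 6 somite pairs 0 of 8 members passed edgeR's test in embryos, against 1.46% of all genes tested. Smo had an unadjusted p under 0.05, as did 2313 of the 11004 genes tested. DESeq2 called 0 members and 397 of all genes. Smo was at 7.84, 13.7 and 29.4 CPM in 17 normal and 10.2, 17.2 and 27.2 CPM in 17 diabetic embryos, with a log2 fold change of 0.38 (SE 0.15, adjusted p = 0.143). The ranges overlapped almost in full. Without the normal litter N24M21, which held the highest normal embryo, Smo passed (0.49, adjusted p = 0.0368).

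Ptch1, which was lower in diabetic embryos at the later stage, was here at 121, 163 and 223 CPM in normal and 108, 157 and 255 CPM in diabetic embryos, and its log2 fold change was -0.03 (95% interval -0.21 to 0.16, adjusted p = 0.902). Gli1 had a log2 fold change of -0.34 (adjusted p = 0.283) and Gli3 of 0.24 (adjusted p = 0.337). The others were between -0.14 for Ihh and 0.06 for Shh, with adjusted p from 0.765 to 0.936. The median log2 fold change was 0.03 over the members and below 0.01 over all genes. None of 37 tested genes of the wider list passed.

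**Figure D4:**
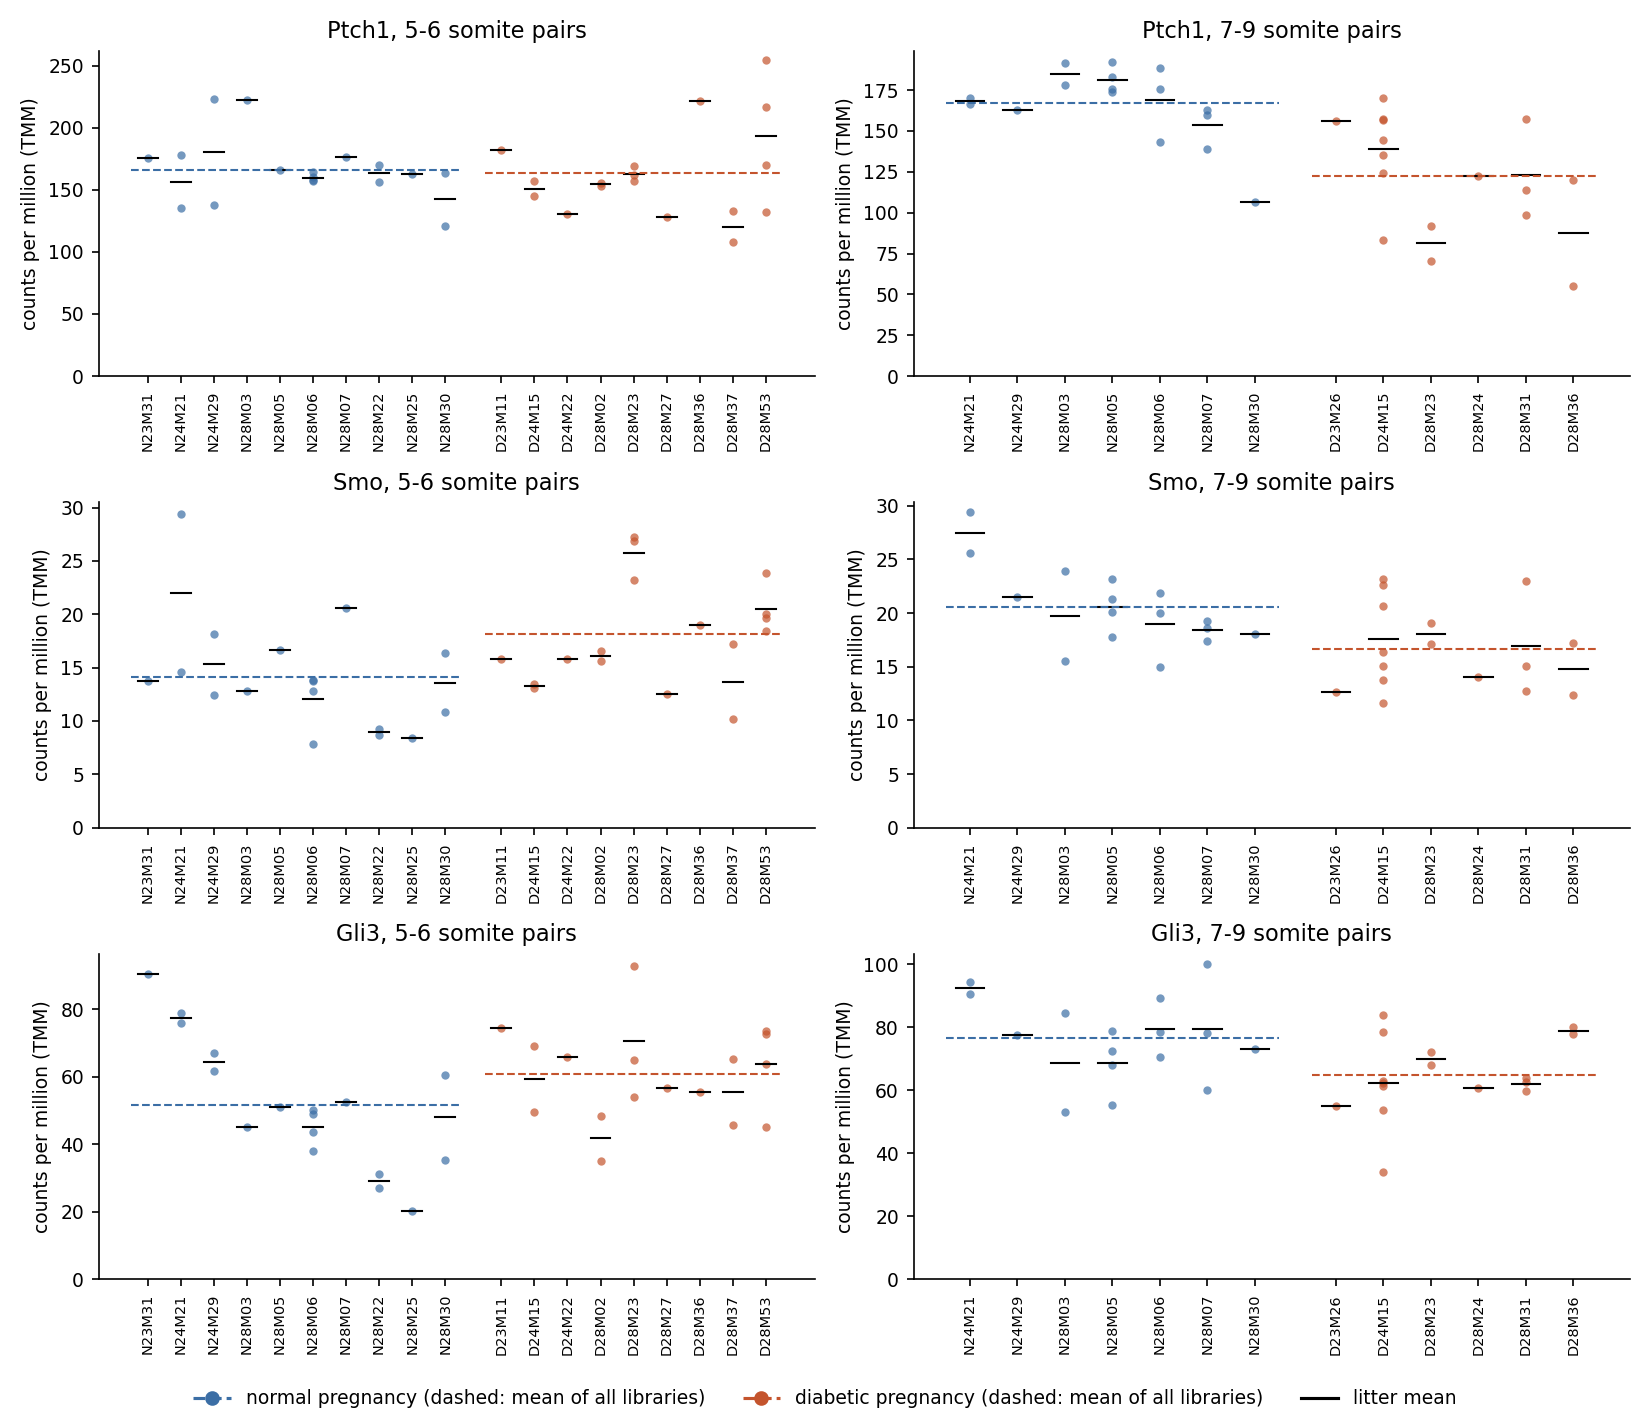
Level of Ptch1, Smo and Gli3 in embryos, in CPM, by litter, stage and maternal condition. Each point is 1 embryo library. Black lines are litter means and dashed lines the means of all libraries of a condition. At 7 to 9 somite pairs the means of the 6 diabetic litters lie at 81.1 to 156 CPM for Ptch1 and 12.7 to 18.1 CPM for Smo. Those of the 7 normal litters lie at 107 to 185 and 18.03 to 27.5 CPM. For Gli3 the litter means lie at 55.1 to 79.0 CPM in diabetic and 68.6 to 92.5 CPM in normal litters.

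The third comparison was of the stages, within normal and within diabetic pregnancies. These comparisons share their libraries with the comparisons of diabetic and normal embryos and are not separate evidence. In normal embryos Smo and Gli3 rose with stage. Smo went from a median of 13.7 CPM at 5 to 6 somite pairs to 20.1 CPM at 7 to 9 (log2 fold change 0.54, SE 0.13, adjusted p = 0.0065). Gli3 went from 20.2, 50.0 and 90.5 CPM to 53.03, 77.8 and 99.97 CPM (lowest, median and highest; 0.56, SE 0.14, adjusted p = 0.0058). The ranges overlapped for both, and every later embryo lay above the median of the earlier ones.

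In normal embryos Ihh was at medians of 4.48 and 3.55 CPM (log2 fold change -0.54, adjusted p = 0.0944), and Shh, Ptch1, Gli1 and Gli2 were between -0.05 and 0.02. The count was 2 of 7 members, both up, against 15.1% of all genes, and DESeq2 also called 2. Hhip fell under the filter.

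In diabetic embryos Ptch1 fell. It went from 108, 157 and 255 CPM to 55.3, 123.2 and 170.4 CPM (log2 fold change -0.41, SE 0.12, adjusted p = 0.0128) and was the 1 of 7 members that passed, against 29.2% of all genes. DESeq2 also called 1. Smo was at medians of 17.2 and 15.7 CPM (-0.11, adjusted p = 0.515), Gli3 at 63.8 and 62.7 CPM (0.11, adjusted p = 0.468), Gli2 at 22.9 and 17.3 CPM (-0.36, adjusted p = 0.0761) and Ihh at 4.50 and 2.56 CPM (-0.51, adjusted p = 0.163). Hhip, at mean levels of 3.76 and 2.34 CPM, was under the filter, and without the filter it passed, at -0.65 (adjusted p = 0.0335).

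Genes of the wider list that passed between the stages were 2 up and 3 down of 38 in normal embryos, where 15.1% of all genes passed, and 6 up and 8 down of 38 in diabetic embryos, where 29.2% did. The largest rises in diabetic embryos were those of Scube1 (0.84) and Scube2 (0.80), which encode secreted carriers of ligand, and Adam17 (0.50), a membrane protease. Adam17 also rose in normal embryos (0.52), with Scube3 (0.43). The 3 falls in normal embryos were Pax9 (-0.49), Foxa2 (-0.39) and the cilium transport gene Ift88 (-0.25), and among the 8 falls in diabetic embryos were Lrp2 (-0.54) and Foxf1 (-0.50).

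A model with both factors tested whether the effect of diabetes itself differed between the stages. For Smo it did: the log2 fold change of diabetic against normal embryos was 0.38 at 5 to 6 somite pairs and -0.29 at 7 to 9, a difference of -0.66 (SE 0.19, 95% interval -1.03 to -0.29, adjusted p = 0.0222). The difference was called in all 5 other settings tried for it. Smo counts were low, with 18 to 91 per embryo library. Within the title number 28 Smo averaged 12.7 CPM in 12 normal and 19.3 CPM in 13 diabetic embryos at the earlier stage and 19.4 CPM in 13 and 16.3 CPM in 8 at the later one. Within number 24 Smo was lower in diabetic embryos at both stages. It was at 18.6 CPM in 4 normal and 14.1 CPM in 3 diabetic embryos and then at 25.5 CPM in 3 and 17.6 CPM in 7. The change of direction thus did not hold within that number. However, 1 litter, D24M15, held all 7 of these later diabetic embryos and 2 of the 3 earlier ones.

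For Ptch1 the difference between the stages was -0.41 (adjusted p = 0.0660) and did not pass; it passed with DESeq2 (adjusted p = 0.0481) and with litter as a random block (adjusted p = 0.0393). For Gli3 it was -0.47 (adjusted p = 0.0806), for Hhip -0.44 and for Gli2 -0.37. In all, 1 member of 8 passed, against 8.70% of all genes tested. Of 39 tested genes of the wider list 4 passed, all with a negative difference: Scube3 (-0.73), Ccnd1 (-0.69), Tulp3 (-0.69), which encodes a ciliary trafficking adaptor, and Lrp2.

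Over all 66 embryos, a model of level on the number of somite pairs, with maternal condition as a term, gave a change for each somite pair added. Ihh, Hhip and Ptch1 fell, 3 of 8 members against 25.2% of all genes. For Ihh the log2 change per somite pair was -0.18 (SE 0.06, adjusted p = 0.0273), and its mean went from 4.90 CPM at 5 somite pairs to 3.02 CPM at 9. For Hhip it was -0.15 (SE 0.05, adjusted p = 0.0132), and the mean went from 3.75 to 2.81 CPM, with the lowest, 2.33 CPM, at 8 somite pairs. For Ptch1 it was -0.07 (SE 0.03, adjusted p = 0.0434), from 166 to 138 CPM. The slope pools both conditions and was not fitted within either. Between the stage groups mean Ptch1 was 166 and 167 CPM in normal embryos, and 163 and 122 CPM in diabetic ones. Mean Hhip was 3.65 and 3.21 CPM in normal and 3.76 and 2.34 CPM in diabetic embryos. Mean Ihh was 5.06 and 3.47 CPM in normal and 4.54 and 3.12 CPM in diabetic embryos.

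These slopes were small, and those of Ihh and Ptch1 did not pass without the filter on low counts (adjusted p = 0.0560 and 0.0845) or with litter as a random block (adjusted p = 0.167 and 0.0530). With the level of visceral endoderm markers of each embryo library as a covariate, a setting added after the data were seen, the slope of Ihh was -0.16 (adjusted p = 0.0545). Gli3 had a slope of 0.08 (adjusted p = 0.0678), and passed with litter as a random block (0.11, adjusted p = 0.0195). The slope of Shh was below 0.01 (95% interval -0.09 to 0.09). Of 39 tested genes of the wider list 4 rose and 8 fell, against the same 25.2% of all genes in either direction.

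**Figure D5:**
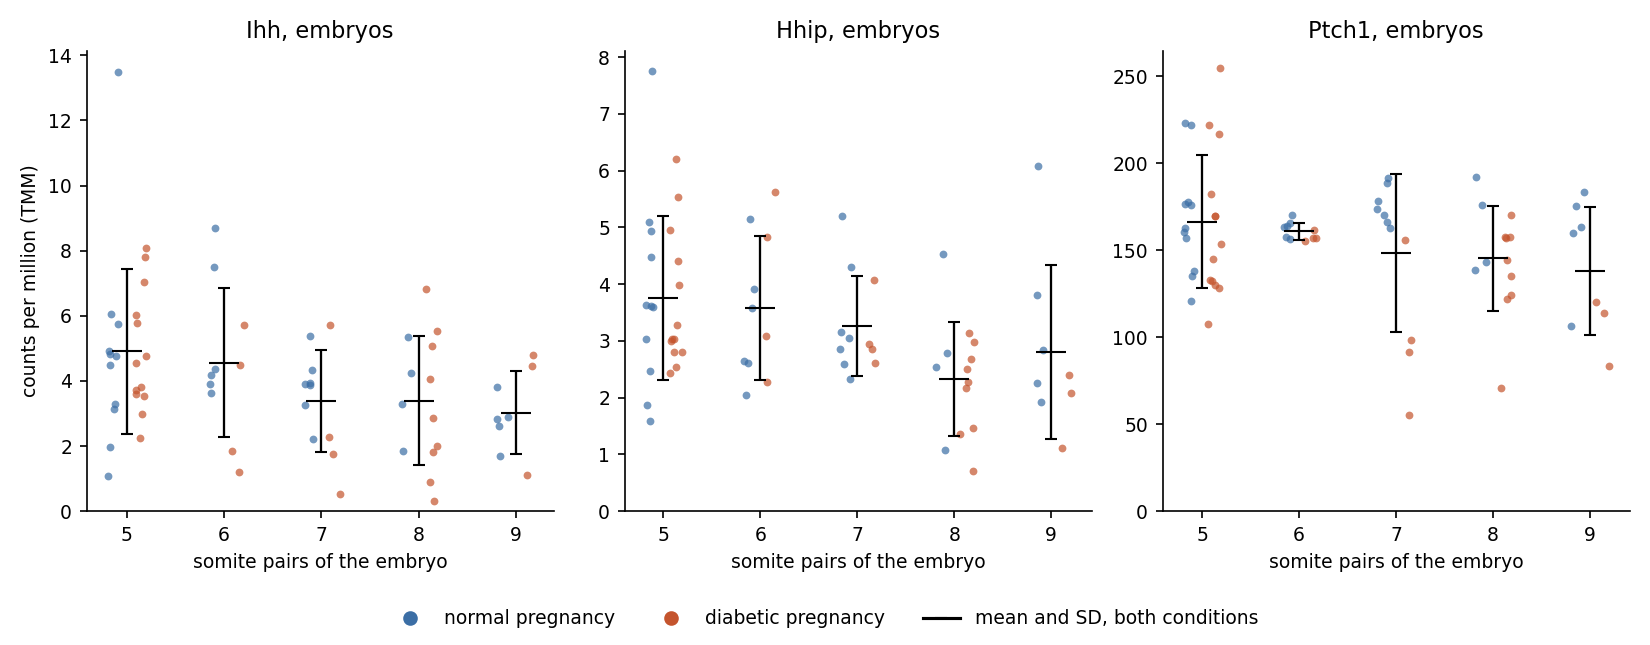
Levels of Ihh, Hhip and Ptch1 in CPM in the 66 embryos, by the number of somite pairs, coloured by maternal condition, with the mean and SD over both conditions. Between 5 and 9 somite pairs the means fall from 4.90 to 3.02 CPM for Ihh and from 3.75 to 2.81 CPM for Hhip. For Ptch1 they fall from 166 to 138 CPM. Neighbouring numbers overlap widely. By stage group mean Ptch1 was 166 and 167 CPM in normal embryos, and 163 and 122 CPM in diabetic ones.

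In yolk sacs no member passed edgeR's test between diabetic and normal pregnancies: 0 of 7 at 5 to 6 somite pairs, where 0% of all genes passed, and 0 of 7 at 7 to 9, where 0.0194% did. None of the 7 had an unadjusted p under 0.05, and DESeq2 called 0 at both stages. Over all genes of the earlier stage 863 had an unadjusted p under 0.05 and DESeq2 called 1. At the later stage these numbers were 1122 and 18. Shh was under the filter.

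Ihh, the ligand of this tissue, had a lowest, median and highest level of 17.6, 26.99 and 44.5 CPM in 17 normal and 12.4, 33.3 and 52.0 CPM in 17 diabetic yolk sacs with 5 to 6 somite pairs. The log2 fold change was 0.14 (95% interval -0.16 to 0.43, adjusted p = 0.809). At 7 to 9 somite pairs it was at 19.6, 31.02 and 42.2 CPM in normal and 17.8, 36.6 and 48.2 CPM in diabetic yolk sacs, a log2 fold change of 0.19 (95% interval -0.04 to 0.41, adjusted p = 0.550). Both intervals include 0, and they reach further up than down.

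Ptch1 in yolk sacs had log2 fold changes of -0.07 (95% interval -0.32 to 0.19) and 0.07 (95% interval -0.17 to 0.31) at the earlier and later stage. Gli1 was at -0.06 and -0.08, Smo at 0.14 and 0.15, and Gli3 at 0.32 and 0.18. Gli2 and Hhip were between 0 and 0.16. Their intervals were wider, up to 0.78 for Gli3, since a yolk sac held as few as 4 counts of that gene. The median log2 fold change of the members was 0.14 and 0.15, and that of all genes -0.0044 and 0.02. None of 25 and 27 tested genes of the wider list passed. Markers of maternal decidua and trophoblast were low in most yolk sacs and reached sums of 157 and 307 CPM in diabetic groups, against at most 15.3 CPM in normal ones; their part in these values was not tested.

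Between the stages, 0 of 7 members passed edgeR's test in normal yolk sacs, against 7.84% of all genes, and 0 of 7 in diabetic yolk sacs, against 33.7%. None had an unadjusted p under 0.05 in either, where 2407 and 4595 of all genes did, and DESeq2 called 0 members. Ihh had log2 fold changes of 0.11 and 0.16 and Ptch1 of -0.09 and 0.05. Visceral endoderm markers, by contrast, went from medians of 9812 to 13729 CPM in normal and of 9245 to 14068 CPM in diabetic yolk sacs between the stages. Over all 66 yolk sacs 0 of 7 members changed with the number of somite pairs, against 39.1% of all genes. Among the members Smo had the only unadjusted p under 0.05 (0.10 per somite pair, adjusted p = 0.0529) and DESeq2 called 0. Over all genes 5221 of the 10961 tested had an unadjusted p under 0.05.

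Some genes of the wider list did pass between the stages. Foxf2, a mesenchymal target (0.71), Btrc (0.49) and Adam17 (0.33) rose and the co-receptor Gas1 (-0.62) fell in normal yolk sacs, of 25 tested, where 7.84% of all genes passed. In diabetic yolk sacs, where 33.7% of all genes passed, 2 of 27 rose, Gnas (0.52), which encodes the stimulatory G protein subunit, and Adam17 (0.36), and 4 fell, most of all Gsk3b (-0.51), the co-receptor Cdon (-0.41) and Csnk1a1 (-0.35). Gsk3b and Csnk1a1 encode kinases that act on GLI proteins. With the number of somite pairs, 5 rose and 4 fell of 27, against 39.1% of all genes.

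For the effect of diabetes on the change between stages, 0 of 7 members passed in yolk sacs, and 0% of all genes did; none of the 7 had an unadjusted p under 0.05 and DESeq2 called 0. Over all genes 634 had an unadjusted p under 0.05, and DESeq2 called 0. Of 27 tested genes of the wider list none passed.

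Whether diabetes acted differently on the 2 tissues was tested in a model with tissue and maternal condition. At 5 to 6 somite pairs 0 of 8 members passed edgeR's test, and 0% of all genes did. No member had an unadjusted p under 0.05 and DESeq2 called 0, while over all genes 895 had an unadjusted p under 0.05 and DESeq2 called 0. At 7 to 9 somite pairs 0 of 8 members passed, against 0.389% of all genes. Ptch1, Smo and Gli3 had an unadjusted p under 0.05, as did 2046 of the 11577 genes tested. DESeq2 called 0 members and 219 of all genes.

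The largest of these differences with a narrow error was that of Ptch1 at 7 to 9 somite pairs, where diabetic concepti had a yolk sac to embryo difference 0.53 higher than normal ones (SE 0.17, 95% interval 0.18 to 0.87, adjusted p = 0.0937). The lower Ptch1 level of diabetic embryos is therefore not shown to be particular to the embryo. Of 38 tested genes of the wider list none passed at either stage.

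Across the 8 groups of libraries, each gene kept the order set by the tissue. For Shh, Ihh, Gli1, Gli2, Gli3 and Hhip the only neighbours in the order of group means that lay further apart than the larger SD were the last group of one tissue and the first of the other. For Ptch1 they were diabetic embryos with 5 to 6 somite pairs, at 163 ± 37.9 CPM, and diabetic embryos with 7 to 9, at 122 ± 34.6 CPM; below these came the 4 yolk sac groups, at 107 to 115 CPM. For Smo no neighbours were further apart than the larger SD.

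Some pairs of members varied together from library to library, within groups, and others did not (in embryos Shh with Gli1 0.06, Gli1 with Gli2 -0.16). With group means subtracted, the rank correlation (Spearman) over 66 embryos was highest for Smo with Gli3 (0.49), followed by Shh with Ptch1 (0.37), Ptch1 with Smo (0.36), Ptch1 with Gli2 (0.32) and Ptch1 with Gli1 (0.31), and lowest for Ihh with Gli3 (-0.36). In yolk sacs it was highest for Gli2 with Gli3 (0.45), Ptch1 with Gli2 (0.43) and Smo with Gli3 (0.35), followed by Gli1 with Hhip and Ptch1 with Gli1 (both 0.34). These are descriptions over libraries that share litters, sequencing depth and normalization.

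The genes of the whole table whose level followed a member most closely were found in the same way, in the tissue where the member was higher. For Gli1 they were Foxm1 (0.83), Pcgf2 (0.82) and Sfxn5 (0.81), for Gli2 Sav1 (0.81), Abl1 (0.79) and Gnb2 (0.77), and for Gli3 Rad54l2 (0.70), Oxsr1 (0.70) and Taf2 (0.69). Ptch1 was followed by Slain2 (0.72), Sall1 (0.71) and Fryl (0.70), and Smo by Ash1l (0.73), Cdk12 (0.72) and Cdk13 (0.71). The nearest genes of Shh, at fewer counts, were lower: Cbx7 (0.58), Eif4h (0.56) and Nck2 (0.52). In yolk sacs Ihh was followed by Gjb2 (0.68), a gap junction gene, Tob2 (0.67) and Actn1 (0.66), and Hhip by the collagen gene Col3a1 (0.70), Angptl6 (0.69) and the collagen gene Col1a2 (0.62). No member was among the nearest genes of another.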

How the data were processed

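Libraries of 3′ ends with molecular identifiers were made from 66 embryos and 66 yolk sacs. The authors deposited 1 table of raw counts per gene; the submitters' notes name STAR, HTSeq and the mouse build mm10, whose versions and settings are not given in the sources used here. 4 duplicate libraries were left out, and 0 pairs of libraries held identical values.

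Levels are CPM with TMM factors over all 132 libraries. Groups were compared with edgeR 4.0.16 (quasi-likelihood test, TMM, filterByExpr with a minimum count of 10), with Benjamini-Hochberg adjustment over all genes tested and a threshold of 0.05. Models held the groups compared and no covariate, except that the slope on somite pairs had maternal condition as a term. Scripts were tested on simulated data. The alternatives were DESeq2 1.42.0, no or another filter, RLE factors, covariates, litter as a random block (limma 3.58.1), counts summed per litter, litters left out in turn, duplicates added, and the conceptus as a replicate block. Titles name the conceptus, which pairs embryo and yolk sac: their deviations from the group means had a median correlation of 0.123 over 34 concepti with 5 to 6 somite pairs and 0.0510 over 32 with 7 to 9. The stage of a yolk sac is that of the embryo its title pairs it with.

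Named are all 8 members, genes of the wider list that passed between diabetic and normal pregnancies, the 3 with the largest change each way between stages or tissues, and the 3 nearest genes of each member; Lrp2 in the stage by diabetes model, Foxf1, Gas1, Boc and Cdon between the tissues were added after their values were seen. One gene that the rule names is not reported here. Members and lists were chosen with earlier results of these data known.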

Additional observations from a re-analysis of the deposited data

Results flagged for a closer look

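The effect of maternal diabetes on Smo in embryos differed between the stages by the test of that difference, at -0.66 on the log2 scale (SE 0.19, adjusted p = 0.0222 in edgeR's test over all genes, 17 and 16 embryos per group). The log2 fold change of diabetic against normal embryos was 0.38 at 5 to 6 somite pairs and -0.29 at 7 to 9, and neither of these passed by itself. Within libraries whose titles open with 24 the diabetic mean was the lower one at both stages, with all 7 diabetic embryos of the later stage from 1 litter. The part of that number in the result was not tested.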

How the results depend on the processing

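For members that the main fits had tested, calls changed in 13 instances, all in embryos. Calls gained by Hhip and Shh where the main filter had removed them are not among these and are given below. Counts of members called changed as follows. For diabetes at 7 to 9 somite pairs the count of 1 became 2 with the title number as covariate or with duplicates added, and 0 from litter sums. Calls over all genes went from 966 to 1899, 949 and 8 in these 3 settings. Leaving out single litters gave 0 to 1 member at that stage, and 0 to 1 at 5 to 6 somite pairs. Between stages in diabetic embryos the count of members became 2 without the filter and with visceral endoderm markers as covariate, which adds Hhip. Calls over all genes went there from 3124 to 2966 and 3413. For the stage by diabetes difference in embryos the count of members became 2 with DESeq2 and with the litter block, with calls over all genes from 984 to 1157 and 1292. For the slope in embryos the count of 3 became 1 without the filter (Hhip), 2 with the litter block (Gli3 and Hhip) and 2 with visceral endoderm markers as covariate (Hhip and Ptch1). Calls over all genes went there from 2877 to 2659, 2597 and 3050. Between tissues in diabetic concepti with 7 to 9 somite pairs the count of members went from 5 to 7 without the filter and with the conceptus block, which add Shh and Hhip. Calls over all genes went there from 7816 to 12400 and 9464. With the conceptus as a replicate block no call between tissues was lost, and for the tissue by diabetes difference at 5 to 6 somite pairs Ptch1 was 0.0418.

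Directions turned only for values that had not passed. In embryos at 5 to 6 somite pairs Gli2 was -0.0550 with somite number and sex as covariates, and at 7 to 9 Shh was -0.10 with the title number. In yolk sacs Gli2 was -0.0559 from litter sums and Hhip -0.0109 with DESeq2 and -0.0059 with RLE factors at the earlier stage, and Ptch1 -0.0083 and Gli3 -0.0183 with the title number at the later one. Between stages in normal embryos Shh was -0.0016 without the filter and -0.0020 without the 2 concepti of differing sex labels, Ptch1 0.0021 with DESeq2 and 0.0029 with RLE factors, and Gli2 -0.0205, -0.0390 and -0.0802 without the filter, without those concepti and with visceral endoderm markers. For the stage by diabetes difference Ihh in embryos was -0.25 with litter as a random block, -0.0074 without those concepti and -0.0446 with visceral endoderm markers, and Gli2 in yolk sacs -0.0397 with litter as a random block. For the tissue by diabetes difference Ptch1 was 0.0416 with litter as a random block and Hhip 0.0056 without those concepti at 5 to 6 somite pairs, and Shh -0.0947 with litter as a random block at 7 to 9. The slope of Shh in embryos was -0.00049 with DESeq2, -0.00082 without the filter and -0.0156 without those concepti, and that of Gli1 -0.0137 with litter as a random block.

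Leaving out litters in turn gave, for diabetes in embryos at 5 to 6 somite pairs, -0.0296 to 0.12 for Shh, -0.36 to 0.0209 for Ihh, -0.11 to 0.0241 for Ptch1, -0.0665 to 0.10 for Gli2 and -0.0327 to 0.0892 for Hhip, and at 7 to 9 -0.12 to 0.0893 for Shh. In yolk sacs it gave -0.14 to 0.0155 for Ptch1, -0.15 to 0.0209 for Gli1, -0.0199 to 0.25 for Gli2 and -0.0716 to 0.0737 for Hhip at the earlier stage, and -0.0939 to 0.15 for Ptch1 and -0.18 to 0.0022 for Gli1 at the later one. The cause of these changes was not tested.

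Over all genes the litters matter more. Calls for diabetes in embryos went from 161 to 4 with the litter block and 0 from litter sums at 5 to 6 somite pairs (397 with DESeq2), and from 966 to 314 and 8 at 7 to 9. Mean levels moved by less than 1 SD in all 128 recomputations with other scaling factors.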

Other observations

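Dhh, the remaining Hedgehog ligand of mammals, was close to the limit of detection in both tissues, with a median of 0 CPM and a highest level of 1.14 CPM in embryos and 1.104 CPM in yolk sacs. Sufu, which holds GLI proteins in the cytoplasm, had medians of 62.3 CPM in embryos and 45.9 CPM in yolk sacs, and Kif7, a ciliary regulator of the GLI proteins, medians of 33.1 and 11.9 CPM.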
